A study of Homo sapiens with 3 samples.

Results

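On chromosome band 1q21, the promoter fragments of 8 genes within 298 kb, TXNIP, RBM8A, GNRHR2, ITGA10, ANKRD35, PIAS3, POLR3C and CD160, were examined as 1 cluster. They are 8 of the 19075 promoter fragments that had a called contact in the cardiomyocytes. The members were found by gene name. A promoter fragment was a fragment in the first column of the deposited lists that holds an annotated transcript start of the gene, and every contact with it was taken. Where a fragment holds the starts of several genes, their contacts cannot be told apart. Of the 9 genes listed for the cluster, NUDT17 had no such fragment and is described by the fragments around its start. The genes were chosen by measured values of these same calls, namely the many contacts of their promoters and the average degree of the subnetwork that joins them. Their numbers of contacts, their scores and their linkage are therefore given as descriptions, with no test.

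The measurements are promoter capture Hi-C (PCHi-C) calls from 3 biological replicates of hESC-CMs, which are cardiomyocytes differentiated from WA09 (H9), an established line of human embryonic stem cells. All replicates come from this 1 line, none carries a further treatment or allele that the labels name, and there is no second group, so no comparison between conditions could be made. The cells were differentiated with a commercial kit, enriched in lactate medium without glucose and checked for the cardiac markers MYH7 and TNNT2 by the submitters. Chromatin contacts hold no expression values, so the cell type could not be checked against its markers here. The replicates listed 112473, 109731 and 110740 calls.

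PCHi-C joins DNA ends that lie close together in fixed nuclei and then captures the joined molecules that contain a promoter, here on fragments cut by the enzyme HindIII. CHiCAGO compares the reads of each pair of fragments with the number expected from their distance and technical noise, and gives a score that grows with the excess. Promoters often contact enhancers, other promoters and the borders of their domain, and a measurement on many cells does not show how many of them hold a contact. A call here is a score of at least 5, the lowest value that the lists contain, so a pair that is not listed is below the threshold rather than absent.

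The 9 genes differ in function. TXNIP encodes a protein that binds thioredoxin and restrains glucose uptake, and RBM8A a core part of the exon junction complex. PIAS3 is a SUMO ligase that inhibits STAT3, and ITGA10 is a collagen-binding integrin subunit. POLR3C is a subunit of RNA polymerase III, NUDT17 a predicted nudix hydrolase and CD160 a receptor of natural killer and T cells. GNRHR2 is annotated as a transcribed pseudogene of the receptor for gonadotropin-releasing hormone II, and ANKRD35 is a little-studied protein with ankyrin repeats.

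TXNIP, GNRHR2 and ANKRD35 were all called with each other in every replicate, and the promoter of TXNIP, at the lower end of the group, is shown for its motifs. It is the 250 bases before the transcript start (GRCh37), with capitals for the CCAAT box on either strand.
TXNIP promoter, chr1:145438240-145438489, plus strand: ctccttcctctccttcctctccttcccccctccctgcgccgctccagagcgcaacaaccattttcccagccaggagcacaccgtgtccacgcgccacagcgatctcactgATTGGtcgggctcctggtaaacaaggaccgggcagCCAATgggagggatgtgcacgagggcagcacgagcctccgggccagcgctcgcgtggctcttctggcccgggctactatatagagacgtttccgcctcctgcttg
The window held 2 CCAAT boxes. Of 19833 windows of the same length before the first listed transcript of each protein-coding gene in GENCODE (GRCh37), 33.0% held CCAAT on either strand. The GC box GGGCGG, the E box CACGTG and the sequence TATAAA, in 52.3%, 7.20% and 9.89% of all windows, were also searched on both strands and not found in the TXNIP window. Its GC content was 63.6%, against a median of 61.2% over all windows. The same windows of GNRHR2 and ANKRD35 held 0 CCAAT boxes each, and 2 and 3 copies of GGGCGG. Only these exact strings were searched, so variant forms of the elements were not looked for. A match is a description of the letters only.

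GNRHR2 and ANKRD35 had the most partners. The GNRHR2 promoter fragment (chr1:145513771-145516282, 2512 bp) contacted 42, 41 and 66 fragments in replicates 1, 2 and 3, or 49.7 ± 14.2 (SD, n = 3). The ANKRD35 promoter fragment (chr1:145546608-145551233, 4626 bp) contacted 53, 37 and 51, or 47.0 ± 8.72. Replicate 3 was high for GNRHR2 and replicate 2 was low for ANKRD35, so the order of these genes changed between replicates. Over the union of replicates they reached 88 and 74 partners, more than 99.4% and 99.0% of all promoter fragments of the series, whose median was 6.

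ITGA10 and TXNIP followed. ITGA10 (chr1:145520504-145527491) had 32, 39 and 33 partners, or 34.7 ± 3.79. TXNIP (chr1:145427517-145441089) had 26, 33 and 28, or 29.0 ± 3.61, and its range overlapped that of ITGA10.

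The other members had fewer. RBM8A (chr1:145503235-145513770, shared with the antisense gene LIX1L-AS1) had 18, 21 and 14 partners, or 17.7 ± 3.51. PIAS3 (chr1:145569758-145575726) had 9, 11 and 22, or 14 ± 7. These values overlapped, although every replicate of RBM8A lay below every replicate of TXNIP, the only neighbours in the order whose replicates did not overlap. POLR3C (chr1:145606188-145621927, shared with the ubiquitin ligase gene RNF115) had 4, 9 and 13 partners, or 8.67 ± 4.51. CD160 (chr1:145714349-145725258) had 1, 4 and 4, or 3.00 ± 1.73. With 3 replicates against 3, no exact two-sided test could give a p below 0.1.

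**Figure D1:**
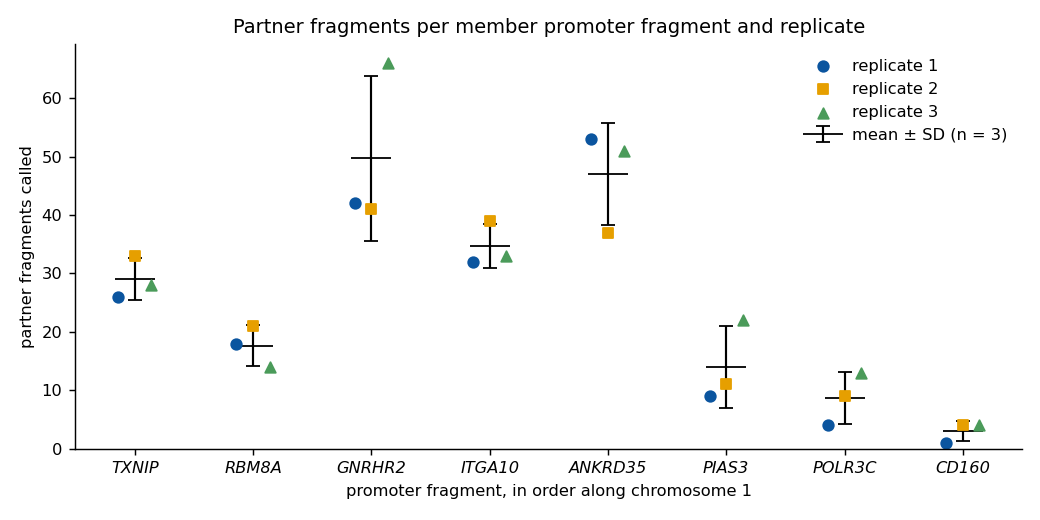
Number of partner fragments called per promoter fragment (vertical axis) for the 8 members in their order along chromosome 1, with 1 point per replicate and bars for the mean ± SD (n = 3). GNRHR2 and ANKRD35 stand highest with means of 49.7 and 47.0, and the numbers fall to 3.00 at CD160.

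In all, the 8 fragments made 338 contacts in the union, with 177, 187 and 225 in the 3 replicates. That is 23.1, 24.4 and 28.9 partners per member fragment (25.5 ± 3.02), against 7.69 ± 0.0454 over all promoter fragments with a call. Of the 338 contacts, 89 were common to the 3 replicates, 73 were found in 2 of them and 176 in 1. The share in all 3 was 26.3% (95% Wilson interval 21.9 to 31.3%, counting error only), and the share over the whole series was 24%. The value for the series lies inside the interval of the members.

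The intervals of the 8 members overlapped. The share was 37.7% (25.9 to 51.2%) for ITGA10, 33.8% (24.0 to 45.1%) for ANKRD35 and 31.9% (20.4 to 46.2%) for TXNIP. GNRHR2 was at 25.0% (17.1 to 35%) and RBM8A at 14.3% (6.26 to 29.4%). CD160 had 0 of 6 contacts in all replicates (upper bound 39.0%).

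Of the 89 contacts called in all replicates, 86 were local. Within 1 Mb lay 217 contacts, so 39.6% (interval 33.4 to 46.3%) of them were called in all replicates, against 34% for the series at that range. The median distance within 1 Mb was 89.7 kb for the members and 359 kb for all contacts of the series. The remaining contacts were 115 over 1 Mb on chromosome 1 and 6 with other chromosomes. None of those 6 was called in a second replicate, while in the series 18.9% of such contacts were called in 2 or 3 replicates and 8.95% in all 3.

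The members contacted each other. Of the 28 pairs of member fragments, 10 were called in at least 1 replicate, against 9.42% of all pairs of promoter fragments up to 300 kb apart, and 5 were called in all 3, against 4.08%. Since the genes were chosen on their contacts in these calls, nothing is read from the difference. TXNIP was called with 5 other members and GNRHR2 and ANKRD35 with 4 each. The POLR3C and CD160 fragments were called with none. The POLR3C fragment holds 16 of the 23 POLR3C starts. A fragment with a further POLR3C start (chr1:145596843-145602802) was contacted by 6 members, the POLR3C fragment among them, and by 2 of them in all replicates.

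TXNIP took part in the strongest of these links. TXNIP and GNRHR2, 80.7 kb apart, scored 9.83, 8.88 and 13.26 (10.7 ± 2.30). TXNIP and ANKRD35, 115 kb apart, scored 11.2, 9.28 and 7.03 (9.17 ± 2.09). GNRHR2 and ANKRD35, 33.9 kb apart, scored 7.67, 7.97 and 9.87 (8.50 ± 1.19), so these 3 fragments were all linked to each other, with overlapping scores. ITGA10 and ANKRD35 scored 6.43, 8.34 and 6.44 (7.07 ± 1.10) at 24.9 kb. GNRHR2 and PIAS3 stood nearest the threshold with 5.19, 5.00 and 5.72 (5.30 ± 0.373) at 57.7 kb. The ANKRD35 and PIAS3 fragments, only 23.8 kb apart, were below the threshold in each replicate but reached 6.23 when the replicates were merged. The PIAS3 fragment holds 3 of the 9 PIAS3 starts. The adjoining fragment with a further PIAS3 start (chr1:145575727-145577484) was contacted by 5 members, ANKRD35 among them, 4 of them in all replicates.

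**Figure D2:**
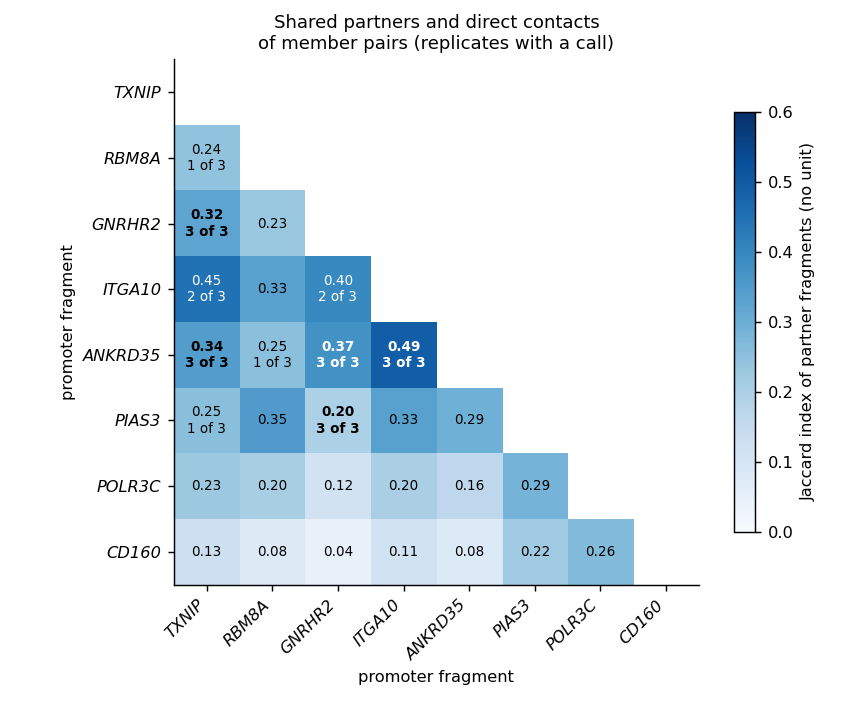
Jaccard index of the partner fragments of each pair of members (colour and upper number, no unit), with the number of replicates that called a direct contact between them below it and in bold where it was 3. The index is highest for ITGA10 with ANKRD35 at 0.49 and lowest for GNRHR2 with CD160 at 0.04. No direct contact with another member fragment was called for the POLR3C or CD160 fragment.

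Members also shared their partners. The 338 contacts fell on 150 distinct fragments, of which 63 were contacted by at least 2 members. The Jaccard index, the number of shared partners over the number of partners of either, averaged 0.250 over the 28 pairs. It was 0.0838 over all pairs of promoter fragments up to 300 kb apart, whose mix of distances differs. Up to 50 kb apart the averages were 0.333 for members and 0.163 for all pairs, and from 50 to 100 kb 0.256 and 0.104. From 100 to 200 kb they were 0.214 and 0.0694, and from 200 to 300 kb 0.0837 and 0.0452. As the genes were chosen on their linkage, nothing is read from this. Across the whole series, the promoter fragment most like ANKRD35 was that of ITGA10 with 42 shared of 85 partners (0.494), followed by GNRHR2 (0.373) and TXNIP (0.344). For GNRHR2 the closest were ITGA10 (0.396), ANKRD35 (0.373) and TXNIP (0.324).

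Of the 150 partner fragments, 68 lay within 1 Mb of the ANKRD35 start, 50 of them between 166 kb below and 147 kb above it and 18 further below, around PDE4DIP and SEC22B. All 8 members contacted 2 fragments, both in a distant block in DDAH1 that is described below. CD160 had all of its 6 partners in this block, so its Jaccard values rest on the block alone. A further 4 fragments were contacted by 7 members. The only local one among them, an intron fragment of LIX1L (chr1:145479785-145482845), was contacted by 5 of its 7 members in all replicates. The fragment with the starts of ANKRD34A and LIX1L (chr1:145472456-145477703) was contacted by 6 members, again 5 in all replicates. A transcript start lay in 34.7% of all 150 partner fragments, distant ones included, in 36.8% of the 68 and in 19.2% of all partner fragments of the series, while 9.33%, 7.35% and 28.2% were intergenic. The median GC content was 45.1% for partners of members and 40.7% for all fragments of the union, and the fragments in the first column were alike in both sets, at 46.1% for members and 46.3% for all promoters.

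Several single contacts were strong in each replicate. ANKRD35 and the fragment with the start of HJV (chr1:145411681-145413459), the gene of the BMP co-receptor hemojuvelin, scored 19.09, 12.19 and 12.56 (14.6 ± 3.88) over 136 kb. TXNIP and the fragment with the NUDT17 start scored 11.78, 17.11 and 12.75 (13.9 ± 2.84) over 154 kb. The first ran towards lower coordinates and the second towards higher ones. ANKRD35 scored 15.26, 9.61 and 13.93 (12.9 ± 2.95) with an intron fragment of HJV next to its start fragment. GNRHR2 scored 9.77, 13.40 and 13.54 (12.2 ± 2.14) with the ANKRD34A and LIX1L fragment. TXNIP had further contacts with an intergenic fragment 15.7 kb away (12.8 ± 1.32) and with the fragment beside NUDT17 (12.7 ± 1.78).

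NUDT17 was seen from the outside. All its starts lay in chr1:145586351-145589481, a fragment listed as the partner of a promoter but never in the first column, so its contacts could be seen only from other promoters. It had 10 partners in the union, 6 of them members, and 5 were called in all replicates. The next fragment (chr1:145589482-145593096) begins 44 bp beyond the furthest NUDT17 start, holds no annotated start and overlaps exons of POLR3C, yet stood in the first column. It had 29, 16 and 29 partners and 45 in the union. Which gene it was captured for was not tested.

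Other promoters of the interval took part too. The HJV fragment had 31, 30 and 30 partners, 21 of them in all replicates, and contacted 5 members. The fragment of ANKRD34A and LIX1L had 16, 20 and 22 partners and the one of POLR3GL, a further RNA polymerase III subunit gene, had 5, 6 and 12, and each contacted 6 members. PDZK1, which encodes a scaffold protein of membrane transporters, lies next to CD160, had 12, 15 and 12 partners and contacted no member. No fragment with a start of GPR89A, GPR89C, NBPF10, NOTCH2NLA or SEC22B stood in the first column.

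Joined into networks by contacts called in all replicates, 7 of the 8 members fell into 1 subnetwork of 45 fragments and 120 contacts, with 12 promoter fragments. Its average degree, the mean number of contacts per fragment, was 5.33, the rank 4 of 3031 subnetworks of the series. CD160 was outside it, having no contact in all replicates. The 45 fragments include the 6 of the distant block in DDAH1, and all 6 contacts of PDZK1 in the subnetwork are with this block. Without the block the subnetwork held 38 fragments and 105 contacts. Without replicate 2 or 3 the network of ANKRD35 grew to 1150 and 937 fragments, and on the merged replicates to 953, where it ranked 26 of 2426. With scores of at least 10 it shrank to 15 fragments and ranked 30 of 1703.

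The members looked to different sides within 1 Mb. TXNIP, at the lower end of the group, had 30 of its 35 partners at higher coordinates. ANKRD35 had 37 of 51 at lower coordinates, PIAS3 16 of 17 and POLR3C 9 of 9. Of these, 22 for ANKRD35, 7 for PIAS3 and 3 for POLR3C lay below the TXNIP fragment and so outside the group. GNRHR2 had 29 lower and 23 higher, ITGA10 26 and 16, and RBM8A 12 and 9. CD160 had no partner within 1 Mb.

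**Figure D3:**
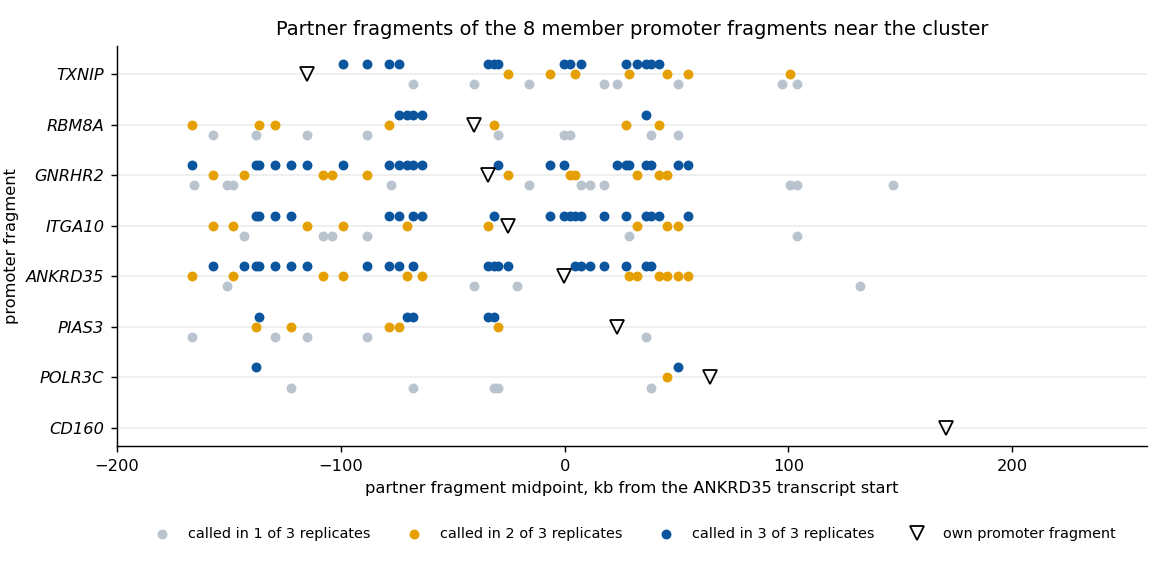
Position of each partner fragment midpoint (horizontal axis, kb from the ANKRD35 transcript start) for the 8 member promoter fragments (vertical axis), coloured by the number of replicates that called the contact, with a triangle at the member's own fragment. Most contacts of TXNIP to PIAS3 lie before the POLR3C triangle, beyond which no contact of theirs was called in all 3 replicates, and CD160 has no point.

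Beyond the POLR3C fragment the contacts of the other members became few. Within 150 kb on the near side of it, ANKRD35 had 25 contacts, GNRHR2 27, TXNIP 26, ITGA10 23, RBM8A 15 and PIAS3 9. Within 150 kb on the far side the numbers were 1 for ANKRD35, 3 for GNRHR2, 3 for TXNIP, 1 for ITGA10 and 0 for RBM8A and PIAS3, and 0 of these were called in all replicates. None of the 6 genes contacted the POLR3C fragment itself. This place was chosen after the values were seen. Distance was not matched between the sides. The near side holds the fragments of all these members but TXNIP, and the far side lies further from all 6. The near side held 34 HindIII fragments, of which 31 were in a call of any promoter, and the far side held 41, of which 13 were.

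Sequence copies were also counted on both sides. A near-identical copy elsewhere in GRCh37 (at least 95% identity over at least 500 bp) was found for 3 of the 34 near fragments and 10 of the 41 far ones. The POLR3C fragment has a copy of 10681 bp at 99.3% identity on chromosome 1. Among fragments without a copy, 28 of 31 were in a call on the near side and 12 of 31 on the far side. The part of the copies in the change was not tested. RBM8A has a copy of 2531 bp on chromosome 14, and GNRHR2 one of 564 bp on a separate scaffold of the assembly. Among partners on other chromosomes, that of ANKRD35 at chr2:5776911-5778402 has a copy on 1q21, and its longest copy is 98.3% identical. The fragment chr2:90447490-90454583, contacted by TXNIP and POLR3C, has 8 copies. The other partners on other chromosomes have 0.

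For each of the 8 members, the contact with the highest mean score over the replicates that called it lay 59.5 Mb from ANKRD35 in DDAH1, the gene of an enzyme that degrades asymmetric dimethylarginine, an inhibitor of nitric oxide synthesis. The partners were 6 adjoining fragments of 27.8 kb in all (chr1:85977822-86005632). Of these, 5 lay in introns and 1 held an annotated start of a gene without a symbol, not of DDAH1. To show where these stretches begin and end, the 60 bases across their outer HindIII cuts follow with the site AAGCTT in capitals, together with those of the ANKRD35 fragment (GRCh37).
ANKRD35 fragment, lower end, chr1:145546578-145546637, plus strand: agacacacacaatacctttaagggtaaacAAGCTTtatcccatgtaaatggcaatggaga
ANKRD35 fragment, upper end, chr1:145551204-145551263, plus strand: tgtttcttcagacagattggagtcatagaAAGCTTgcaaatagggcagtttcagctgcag
DDAH1 block, lower end, chr1:85977792-85977851, plus strand: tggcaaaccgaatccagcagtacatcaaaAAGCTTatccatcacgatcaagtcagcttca
DDAH1 block, upper end, chr1:86005603-86005662, plus strand: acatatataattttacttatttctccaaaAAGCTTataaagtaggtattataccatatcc
All 127138 fragments compared began and ended at such a site or at a chromosome end. None of the 6 DDAH1 fragments has a near-identical copy elsewhere, and their median GC content was 38.6%.

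ANKRD35 was the only member for which the same DDAH1 fragment was called in all replicates. With the fragment at the upper end of the block (chr1:86003406-86005632) it scored 55.89, 26.10 and 7.33 (29.8 ± 24.5). With chr1:85990370-85994344 it scored 27.29, 13.37 and 25.00 (21.9 ± 7.46), and with chr1:85998535-85999306 it scored 26.10, 18.70 and 18.40 (21.1 ± 4.36). The first of these varied most between replicates, while the sum over the 6 fragments was 109, 112 and 125 (116 ± 8.50).

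The other members reached the block less evenly. Summed scores were 53.7, 33.7 and 32.6 for GNRHR2, and 34.5, 54.5 and 53.0 for POLR3C. For CD160 they were 20.6, 50.3 and 100, and for TXNIP 16.20, 25.53 and 91.96. For PIAS3 they were 16.6, 0 and 78.0, with no call in replicate 2. ITGA10 had 19.5, 66.9 and 7.88, and RBM8A had 8.80, 7.93 and 34.4. Replicate 3 was highest for TXNIP, RBM8A, PIAS3 and CD160, replicate 1 for GNRHR2 and replicate 2 for ITGA10 and POLR3C.

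In total 42 of the 48 possible contacts between members and the block were called in a replicate, and 19 were called on the merged replicates. By replicate 14, 24 and 27 were called, so that 3 were common to all, 17 were found in 2 and 22 in 1. Over the whole series, 2.59% of contacts over 10 Mb on the same chromosome were called in all replicates. The 65 listed member scores ran from 7.31 to 55.89 with a median of 16.3, against a median of 6.28 for all such distant contacts. They took only 55 distinct values, and 26.10 occurred 4 times.

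Promoters beside the members reached the block as well. PDZK1 contacted all 6 fragments in every replicate, with summed scores of 549, 390 and 765 (568 ± 188), above each member in each replicate. HJV had 101.98, 91.95 and 77.58, and the fragment beside NUDT17 had 66.5, 69.6 and 121. Of the 26 promoter fragments of the series with a contact in the block, 11 lay within 100 kb of the span of the members. The other 15 contacted 1 block fragment each, and 0 of those contacts were called in all replicates. None of the 18 promoter fragments within 1 Mb of the block was called with it.

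**Figure D4:**
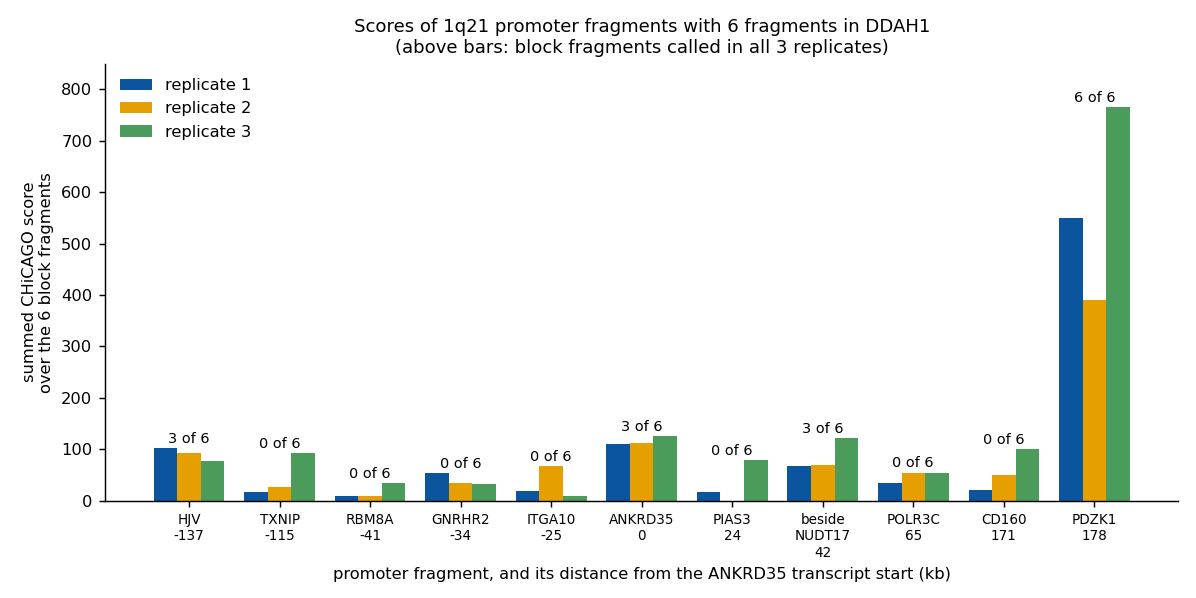
Summed CHiCAGO score with the 6 DDAH1 fragments (vertical axis) for each promoter fragment near the cluster (horizontal axis, with kb from the ANKRD35 transcript start), 1 bar per replicate, 0 where no contact was called. Above the bars stands the number of block fragments called in all 3 replicates, which is 3 for ANKRD35 and 6 for PDZK1, whose sums of 549, 390 and 765 exceed every other bar.

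Near contacts and contacts with the block were compared with the calls on the merged replicates at the same number of calling replicates, with near contacts counted once for each member. Of the 91 contacts within 1 Mb called in all replicates, 91 were called on the merged data and 0 scored below the mean of the replicates. All 3 such contacts with the block were called too, and 3 scored below it. Of the 56 near contacts called in 2 replicates, 55 were called on the merged data and 12 scored below the mean of these 2. With the block there were 17, of which 14 were called and 14 scored below it. Of contacts called in 1 replicate, the merged data held 46 of 80 near ones and 2 of 22 with the block. A mean over only the calling replicates leaves out those below the threshold. For ANKRD35 the merged scores were 20.92, 13.83 and 19.38 with the 3 fragments in the order above.

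Outside DDAH1, distant contacts were rarely repeated. The 13 further contacts over 10 Mb on chromosome 1 were each called in 1 replicate. Between 1 and 10 Mb, only GNRHR2 had contacts in 2 replicates, both chosen after their values were seen. They were with the fragment of the PI4KB and ZNF687 starts (6.77 and 7.93 in replicates 2 and 3) and with an intron fragment of VPS45 (8.24 and 5.35 in replicates 1 and 3).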

How the data were processed

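The authors mapped the reads with HiCUP to GRCh37 and called contacts with CHiCAGO at default parameters. The deposited value of each pair of HindIII fragments is its CHiCAGO score, listed from 5 upwards for each of 3 replicates and for the merged replicates. The lists give no read counts, which leaves the depth behind a score unknown, and a pair below the threshold could not be told from no contact. Pairs were counted without order over the union of the 3 replicates, and distances run between midpoints. Annotation came from GENCODE release 44 lifted to GRCh37. Means and SDs are over replicates, and intervals are 95% Wilson intervals. Because there is 1 group, no test between groups was made. The counting was tested on simulated data, where the known numbers of contacts, shared partners and shares were recovered. Members and gene lists were chosen with earlier results of these data known. Named are the members, listed genes of the interval, the 10 highest contacts called in all replicates, the strongest contact of each member, the 5 most shared partner fragments, repeated distant contacts and the 3 most similar promoters of ANKRD35 and GNRHR2. Further names were picked with their values in view. Some of these contacts and sequences are not reported here. Alternatives were other score limits, replicates left out, merged calls, ordered pairs, protein-coding starts, copied sequence and, for subnetworks, other sets of contacts. Software was Python 3.11.15, pandas 2.3.3, networkx 3.6.1, minimap2 2.31-r1302 and pysam 0.24.0.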

Additional observations from a re-analysis of the deposited data

Results flagged for a closer look

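On the merged replicates, 11 member contacts were called that no single replicate listed. They drew attention because the counts in the text rest on single replicates. ANKRD35 had 4 of them, among them PIAS3 at a score of 6.23, TXNIP had 4 and POLR3C had 3. Their scores ran from 5.03 to 6.81, the highest being TXNIP with a fragment 93.5 kb away. The number of replicates was too small to look for a single deviating sample.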

How the results depend on the processing

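With scores of at least 7 and 10 in place of 5, the contacts of the members came to 187 and 92 (338 before), contacts between members to 6 and 2, partners per fragment to 13.9 and 5.79, contacts with other chromosomes to 3 and 1, shared partners to 39 and 21, and the average degree to 4.13 and 2.80. The median distance was 116 kb at 7, and the share called in all replicates 10.9% at 10. Contacts with DDAH1 numbered 42 at a score of 7 and 34 at 10. On the merged replicates there were 212 contacts, 0 with other chromosomes, 19 with DDAH1, a median distance of 88.1 kb, a median score of 20.4 for the 10 strongest contacts (13.9 before) and an average degree of 4.94, rank 26 of 2426. Leaving out each replicate gave contacts from 257 to 294, a share in both remaining replicates from 40.1 to 41.6%, contacts between members from 8 to 10, partners per fragment from 23.8 to 26.6, a median distance from 123 to 138 kb, contacts with other chromosomes from 3 to 5, shared partners from 51 to 57, scores from 13.9 to 14.8 and an average degree from 4.74 to 6.00. The subnetwork of ANKRD35 then held 52, 1150 and 937 fragments without replicates 1, 2 and 3 and ranked 1, 7 and 4, against 45 fragments and rank 4. Contacts with other chromosomes were 3 without replicate 3, against 6. Within 1 Mb the share in all replicates was 39.6%, and 52.3% where a partner within 5 kb counted as a match. Without pairs of promoters the median distance was 184 kb. With the top 20% of contacts by summed score the average degree was 5.78, and with all contacts 3.26. Starts of protein-coding transcripts alone, which leaves out GNRHR2, gave 22 partners per fragment. Left out after seeing the data, the DDAH1 block moved the median distance to 130 kb and the average degree to 5.53. Of 74 values under an alternative, 38 moved. Counts moved if they changed by more than 1.5 times, the share if it left its Wilson interval, and other values if they changed by the SD between replicates or more. Without a replicate, the share and the subnetworks ask for a call in 2 replicates rather than 3, which is a looser rule. No paired analysis was possible because all samples are of 1 group.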

Other observations

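The members also contacted fragments below NBPF10, around PDE4DIP and SEC22B, in 36 contacts over 18 fragments (chr1:144993388-145116060). They were found in 1 replicate (32 contacts) or in 2 (4 contacts), with 0 common to all, and had mean scores from 5.07 to 9.08. This neighbourhood depends on the genome build. In GRCh37, which the calls use, SEC22B is separated from TXNIP by 8 protein-coding genes, and in the RefSeq annotation of GRCh38 by 34. The genes from HJV to PDZK1 stand in the reverse order in GRCh38. PDE4DIP and TXNIP have 10 protein-coding genes between them in GRCh37 and 19 in GRCh38. The annotation differs as well, GENCODE for GRCh37 and RefSeq for GRCh38, so these counts do not reflect the build alone. Between TXNIP and PDZK1, inside the reversed stretch, they were 14 and 12. None of the 18 fragments has a near-identical copy, and the calls were not placed on GRCh38 here.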
